A study of Rattus norvegicus with 5 samples.

Results

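Described here are 10 genes across 5 two-colour arrays of rat parietal cortex: the tissue inhibitors of metalloproteinases Timp1, Timp2, Timp3 and Timp4, the matrix metalloproteinases Mmp2, Mmp3, Mmp9, Mmp12 and Mmp14, and the related protease Adamts1. They were chosen by name, as every probe that carries one of these 10 gene symbols, which gave 10 of the 15998 different symbols and 12 of the 41012 probes on the array. Mmp2 and Timp4 had 2 probes each and the other 8 genes had 1. Each array compared the total RNA of 1 kaolin sample, labelled with Cy3, with that of 1 saline sample, labelled with Cy5. Kaolin is a clay that, injected into the fluid spaces around the brain, obstructs the flow of cerebrospinal fluid and enlarges the ventricles (hydrocephalus). Pups received kaolin or saline on postnatal day 1 and stayed with the dam, and brains were taken on postnatal day 22, which was day 21 after kaolin. The strain, and whether each sample came from 1 animal, are not given in the sources used here, so the p-values measure the spread between these samples. The dyes were never exchanged, so dye and treatment cannot be told apart.

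Matrix metalloproteinases are zinc-dependent enzymes that are made as inactive precursors and, once activated, cut collagen, laminin, proteoglycans and other proteins outside the cell. Tissue inhibitors of metalloproteinases bind in the active site and block it, so the balance of enzymes and inhibitors bears on how fast matrix is turned over. In the brain these genes are transcribed by glia, neurons, vascular cells and infiltrating leukocytes, and they are best known there for remodelling of the basal lamina, opening of the blood-brain barrier and glial scarring. Arrays measure messenger RNA only, and neither the amount of active enzyme nor the binding of inhibitor is measured.

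Promoter sequences are shown because several protease genes are classic targets of AP-1, a transcription factor pair of the Fos and Jun families that injury and cytokines activate. They come from the RefSeq table on GRCr8, which matched 7 of the 10 members. Windows cover the 150 bases before the annotated start, 5′ to 3′ on the gene's strand, and capitals mark TGAGTAA in Timp1 and TGAGTCA in Mmp3 and Mmp12. They lie at chrX:3771123-3771272 (minus strand) for Timp1, chr8:12925131-12925280 (plus strand) for Mmp3 and chr8:12866502-12866651 (plus strand) for Mmp12.
Timp1: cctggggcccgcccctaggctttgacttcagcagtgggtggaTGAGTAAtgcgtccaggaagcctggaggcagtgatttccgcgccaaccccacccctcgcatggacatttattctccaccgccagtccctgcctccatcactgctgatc
Mmp3: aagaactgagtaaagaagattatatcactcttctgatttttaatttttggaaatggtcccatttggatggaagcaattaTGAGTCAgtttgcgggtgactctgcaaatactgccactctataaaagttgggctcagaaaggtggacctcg
Mmp12: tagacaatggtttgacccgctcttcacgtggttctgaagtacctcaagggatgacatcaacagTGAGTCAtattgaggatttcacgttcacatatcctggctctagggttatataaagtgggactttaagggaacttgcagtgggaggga
The AP-1 letters TGAGTCA or TGACTCA (the same site on opposite strands) lay 71 bases before the start in Mmp3 and 87 bases before it in Mmp12. They were found in 2 of the 7 member promoters and in 4.63% of all 33469 promoters of 300 bases. The variant TGAGTAA, searched on both strands after the Timp1 sequence had been seen, lay 108 bases before the Timp1 start and 144 before the Mmp3 start (there in lower case), and 2.9% of all promoters hold it. The STAT letters TTCNNNGAA were in 0 of the 7 and in 8.87% of all promoters. A match describes letters in this window and says nothing of binding.

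The probes lie, on rn4 as the array files give it, at chrX:12542700-12543703 for Timp1, chr10:108311244-108311303 for Timp2, chr7:19679721-19679780 for Timp3, and chr4:151375657-151375716 and chr4:151376922-151379292 for the brighter and the dimmer Timp4 probe. The metalloproteinase probes lie at chr19:15246221-15246280 for the brighter Mmp2 probe, chr3:155992463-155992522 for Mmp9, chr15:32503012-32503071 for Mmp14, chr8:4325061-4325526 for Mmp3, chr8:4259057-4259413 for Mmp12 and chr11:25434208-25434267 for Adamts1. Timp1, Timp2, Timp3, Timp4, Mmp2 and Adamts1 run on the minus strand and Mmp3, Mmp9, Mmp12 and Mmp14 on the plus strand. The exons and UTRs they fall in were not annotated here. The Timp4 probes carry older names in the array files and were matched through a gene ID and a shared accession.

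Per array, 27956 to 29384 probes exceeded background clearly for kaolin and 27371 to 28927 for saline, and no spot was saturated. Replicates 1 to 4 lay on slide 1 and replicate 5 on slide 2. The log2 ratios of replicate 2 ran against those of replicate 1 (correlation across all probes -0.325), and were also below 0 against replicates 3, 4 and 5 (-0.152, -0.059 and -0.05). The labels give the same dyes for every array, so the direction of replicate 2 was kept, and values with its sign turned are given with the other alternatives. Markers of reactive astrocytes (Gfap, Vim, Serpina3n, Lcn2, Cd44) had median log2 ratios of 0.14, -0.04, 2.57, 2.14 and 2.61 on replicates 1 to 5. Replicates 1 and 2 therefore stood apart from replicates 3, 4 and 5 in these markers. Across all probes, however, replicate 1 correlated with replicates 3, 4 and 5 at 0.509, 0.454 and 0.115.

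Values below are log2 ratios of kaolin over saline, so that 0 is equal signal and 1 is double, and levels are normalized log2 signals of each channel, which are not compared between probes. All 12 member probes passed the filter on dim probes, and 9 of them were well above background in both channels of every array. None of the 12 passed the test (limma with Benjamini-Hochberg adjustment over all 29110 tested probes, adjusted p threshold 0.05), against 0.0% of all tested probes. The smallest adjusted p of any probe in limma with Benjamini-Hochberg adjustment was 0.243. An unadjusted limma p under 0.05 with a higher kaolin signal was met by 5 of the 12 member probes (Timp1, Timp2, both Timp4 probes and Mmp12), against 8.83% of all tested probes. Mmp12 entered the test only through the kaolin channel, so its place in this count is no support. The count was 3 without replicate 3 and 3 without replicate 5, where the unadjusted limma p of Timp1 was 0.0864 and 0.0922. In either direction, 2035 and 3926 of the 29110 tested probes had an unadjusted limma p under 0.05 in these settings. Mmp12 was among the 3 in both settings, and its place is no support there either. Mean log2 ratios were above 0 for 10 of the 12 member probes, against 49.2% of all tested probes. Among the 12702 tested genes with an official symbol, as the members have, the share was 56.4%. Mmp12 is among the 10 and among the probes of the medians that follow, and its place there is likewise no support. The median over the 12 member probes was 0.08, 0.0, 0.48, 0.28 and 0.52 on replicates 1 to 5, while over all tested probes it lay between -0.01 and 0.0 on each array. The members thus had their highest medians on replicates 3 and 5 and their lowest on replicates 1 and 2.

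**Figure D1:**
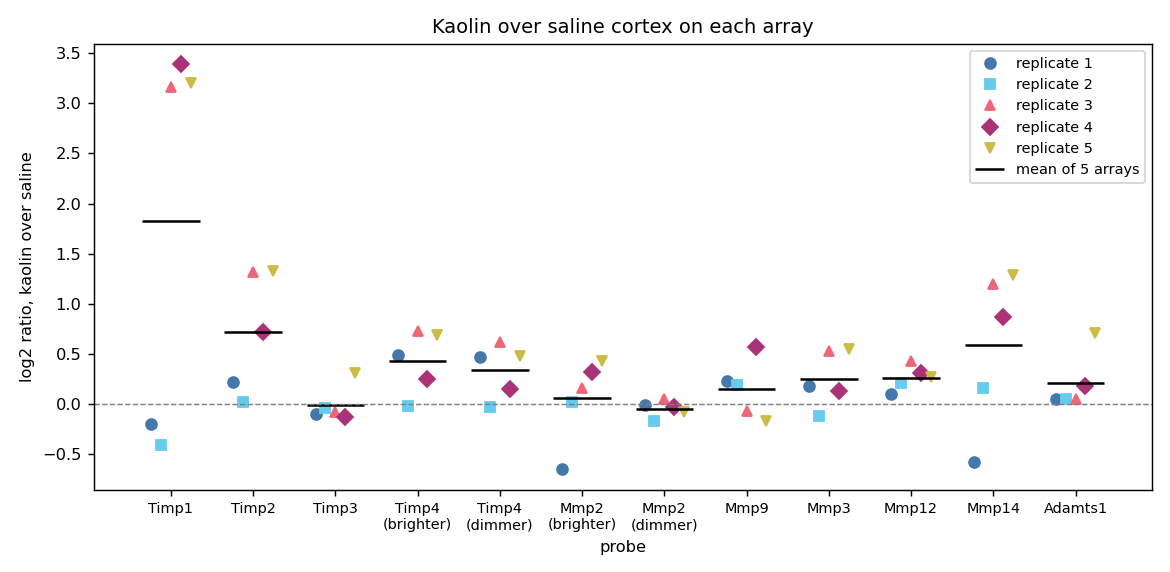
Log2 ratio of kaolin over saline for each of the 12 member probes, with a point for every replicate array and a bar at the mean of 5 arrays; the dashed line at 0 marks equal signal. Timp1 lies at -0.20 and -0.41 on replicates 1 and 2 and at 3.16 to 3.39 on replicates 3, 4 and 5, while the Mmp2, Mmp9 and Timp3 means lie close to 0.

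Timp1 encodes a secreted inhibitor that is strongly inducible in astrocytes and many other cells. Its log2 ratio was -0.20, -0.41, 3.16, 3.39 and 3.20 on replicates 1 to 5, or 0.871-, 0.752-, 8.97-, 10.5- and 9.16-fold. The kaolin signal was thus below the saline signal on replicates 1 and 2 and many times above it on replicates 3, 4 and 5. Normalized log2 levels were 9.10, 9.09, 12.70, 13.11 and 12.82 in the kaolin samples. They were 9.30, 9.50, 9.54, 9.73 and 9.62 in the saline samples. The saline samples lay close together (9.54 ± 0.16, SD, n = 5), and the spread came from the kaolin samples (11.36 ± 2.08), of which 3 were above the highest saline sample and 2 below the lowest. In raw mean signal the kaolin channel read 407, 428, 5360, 7550 and 6230 over a local background near 22, so the split was present before any normalization. The mean log2 ratio was 1.83 ± 1.95 (SD, n = 5), 3.55-fold, with a 95% interval of 0.26 to 3.40 and an adjusted p of 0.247 (limma with Benjamini-Hochberg adjustment). It was 2.33 without replicate 1 and 2.39 without replicate 2.

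The Timp1 probe was printed at 10 places on each array, which gives the reading error within an array. The SD over the 10 spots was 0.04, 0.06, 0.07, 0.05 and 0.10 on replicates 1 to 5. The SD between the 5 arrays was 1.95. The 10 spots of replicate 2 ran from -0.49 to -0.28 and those of replicate 4 from 3.34 to 3.49. The spots give the error of reading the probe only, and not the spread to be expected between samples.

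**Figure D2:**
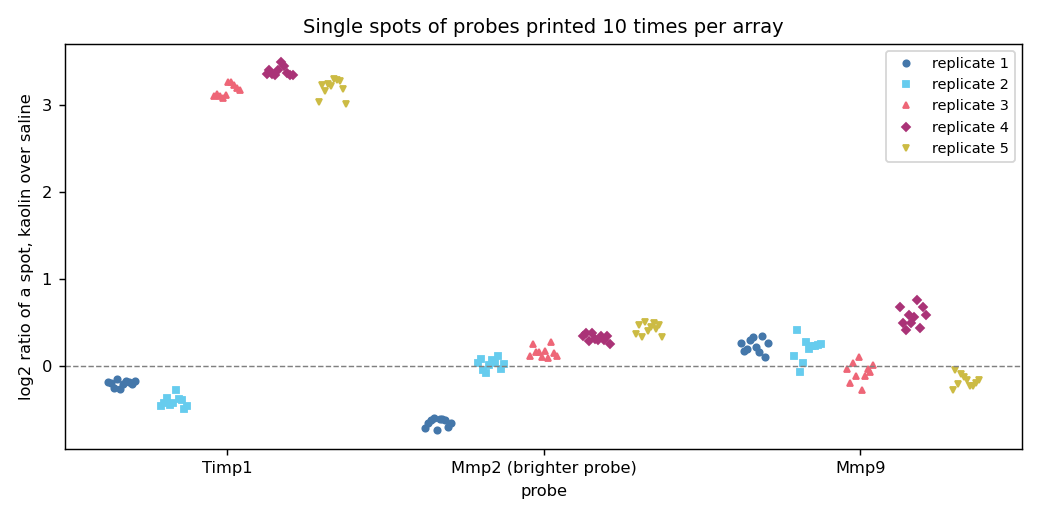
Log2 ratio of every spot of the 3 member probes printed 10 times per array (Timp1, Mmp2 brighter probe, Mmp9), by replicate. The spots of an array lie close together for Timp1 (SD 0.04 to 0.10), while the arrays lie between -0.41 and 3.39.

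Timp2 encodes the inhibitor that also serves, on the cell surface, as the link by which Mmp14 activates the Mmp2 precursor, and it is abundant in healthy brain. Its log2 ratio was 0.22, 0.02, 1.32, 0.72 and 1.33 on replicates 1 to 5. Kaolin levels were 14.53, 14.36, 15.55, 14.93 and 15.62, and saline levels were 14.31, 14.34, 14.23, 14.21 and 14.29. Every kaolin sample was above every saline sample, by as little as 0.02 between the lowest kaolin and the highest saline sample. No other member probe had this, and 1.45% of all tested probes did. The mean log2 ratio was 0.72 ± 0.61 (SD, n = 5), 1.65-fold, with a 95% interval of 0.22 to 1.23 and an adjusted p of 0.243 (limma with Benjamini-Hochberg adjustment). It was 0.85 without replicate 1, 0.90 without replicate 2 and 0.39 with median centring in place of loess normalization, which shifts the median of all tested probes by -0.1.

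Timp3 encodes the inhibitor that stays bound to the matrix and also blocks several Adam and Adamts proteases. Its log2 ratio was -0.10, -0.04, -0.08, -0.13 and 0.31 on replicates 1 to 5. Kaolin levels were 7.31, 7.42, 7.36, 7.20 and 7.49, and saline levels were 7.41, 7.46, 7.45, 7.33 and 7.18. The groups overlapped, with 4 arrays slightly below 0 and replicate 5 above it. The mean log2 ratio was -0.01 ± 0.18 (SD, n = 5), with a 95% interval of -0.21 to 0.19 and an adjusted p of 0.966 (limma with Benjamini-Hochberg adjustment). Its sign was positive when any of replicates 1 to 4 was left out.

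Timp4 encodes the inhibitor best known from heart and brain. Its brighter probe had log2 ratios of 0.49, -0.02, 0.73, 0.25 and 0.69 on replicates 1 to 5. Kaolin levels were 9.62, 9.43, 9.75, 9.15 and 9.82, and saline levels were 9.12, 9.46, 9.03, 8.89 and 9.13. The kaolin sample was the higher on 4 of 5 arrays, with replicate 2 close to 0, and the groups overlapped. The mean log2 ratio was 0.43 ± 0.31 (SD, n = 5), 1.35-fold, with a 95% interval of 0.14 to 0.72 and an adjusted p of 0.243 (limma with Benjamini-Hochberg adjustment). The dimmer Timp4 probe had log2 ratios of 0.47, -0.03, 0.62, 0.15 and 0.48, again lowest on replicate 2, and a mean of 0.34 ± 0.27 (SD, n = 5). Median centring in place of loess gave means of 0.27 and 0.21 for the brighter and the dimmer probe.

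Of the 4 inhibitors, Timp1, Timp2 and both Timp4 probes were each lowest on replicate 2 and above 0 on replicates 3, 4 and 5. They differed in size and on replicate 1, and differences between genes were not tested. Timp1 was below 0 on replicates 1 and 2 and far above it on the others, Timp2 was near 0 on replicate 2 and highest on replicates 3 and 5, Timp4 was above 0 on 4 of 5 arrays, and Timp3 was near 0 in the mean. None passed the test. An interval of -0.21 to 0.19 for Timp3 leaves room for a shift of that size.

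**Figure D3:**
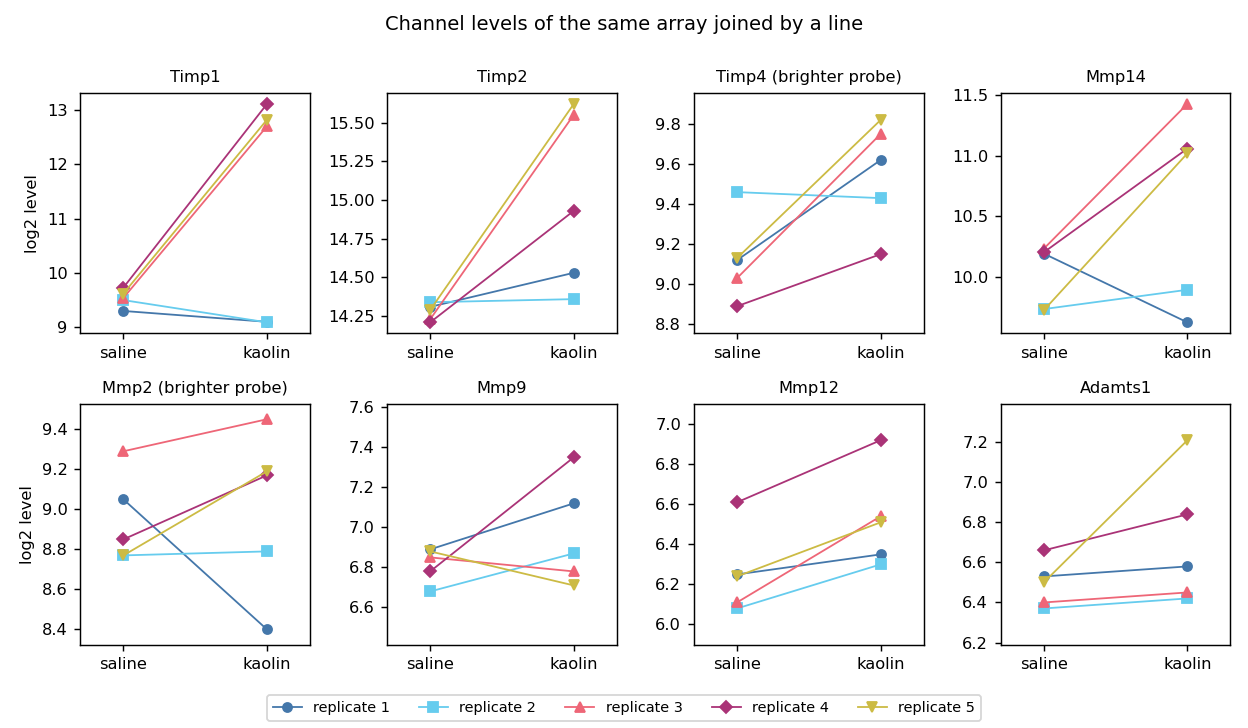
Normalized log2 level of 8 member probes in the saline and the kaolin sample of every array, with lines that join the samples of an array; levels are comparable within a panel only. The saline Timp1 levels lie between 9.30 and 9.73 and the kaolin levels at 9.09 to 9.10 or at 12.70 to 13.11, and every Timp2 kaolin level lies above every saline level.

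Mmp2 and Mmp9 are the gelatinases, which cut denatured collagen and the type IV collagen of basal lamina. Mmp2 is made steadily by astrocytes, vascular cells and meningeal fibroblasts. The brighter Mmp2 probe had log2 ratios of -0.65, 0.02, 0.16, 0.32 and 0.43 on replicates 1 to 5. Replicate 1 stood below 0 and the other arrays at or above it, and kaolin levels (8.40, 8.79, 9.45, 9.17 and 9.19) overlapped saline levels (9.05, 8.77, 9.29, 8.85 and 8.77). Its mean was 0.06 ± 0.42 (SD, n = 5), with a 95% interval of -0.31 to 0.42 and an adjusted p of 0.860 (limma with Benjamini-Hochberg adjustment). The dimmer Mmp2 probe, for which the array files give no position, had log2 ratios of -0.01, -0.17, 0.05, -0.03 and -0.08 and a mean of -0.05 ± 0.08 (SD, n = 5). The means of the probes thus lay on either side of 0, with 95% intervals that both included 0 (-0.20 to 0.11 for the dimmer probe). The brighter probe was read at 10 spots per array, with an SD of 0.04 to 0.06.

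Mmp9 is the inducible gelatinase, known from leukocytes, microglia and neurons. Its log2 ratio was 0.23, 0.19, -0.07, 0.57 and -0.17 on replicates 1 to 5. Kaolin levels were 7.12, 6.87, 6.78, 7.35 and 6.71, and saline levels were 6.89, 6.68, 6.85, 6.78 and 6.88. The groups overlapped, and the arrays with the highest Timp1 ratios had Mmp9 ratios on either side of 0. The mean was 0.15 ± 0.29 (SD, n = 5), with a 95% interval of -0.12 to 0.42 and an adjusted p of 0.483 (limma with Benjamini-Hochberg adjustment), and it was 0.05 without replicate 4 and 0.31 in the authors' deposited table. The SD over the 10 Mmp9 spots of an array was 0.07 to 0.13. Granulocytes store Mmp9 protein in granules, and of the 6 granulocyte markers Mpo, Elane and Ngp were not tested. The other 3 had a median log2 ratio of 0.09, with summed log2 levels of 7.90 to 8.60 in kaolin and 7.93 to 8.55 in saline samples. The median of these 3 was 0.11 without background subtraction and 0.19 with a normexp offset of 0. It was 0.37 in the authors' deposited table and 0.39 from the processed signals, so its size depended on the processing.

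Mmp14 is a membrane-bound collagenase that activates the Mmp2 precursor. Its log2 ratio was -0.58, 0.16, 1.20, 0.87 and 1.29 on replicates 1 to 5. Kaolin levels were 9.62, 9.89, 11.43, 11.06 and 11.02, and saline levels were 10.19, 9.73, 10.23, 10.20 and 9.72. The kaolin samples of replicates 3, 4 and 5 lay above every saline sample and that of replicate 1 below every saline sample. The mean was 0.59 ± 0.79 (SD, n = 5), 1.50-fold, with a 95% interval of -0.06 to 1.24 and an adjusted p of 0.299 (limma with Benjamini-Hochberg adjustment). It was 0.88 without replicate 1 and 0.69 without replicate 2. On replicate 1, where Mmp14 and the brighter Mmp2 probe were lowest, the fibroblast gene Col1a1 had a log2 ratio of -1.18 and the 7 markers of meninges and fibroblasts a median of -0.31. Over the 5 arrays those markers had medians of -0.31, -0.17, 0.87, -0.13 and 0.62, with positive means for 7 of 7 and summed log2 levels of 14.25 to 15.66 in kaolin and 14.51 to 14.97 in saline samples. Their part in the result was not tested.

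Mmp3 and Mmp12 are secreted enzymes known from inflamed tissue, Mmp3 (stromelysin 1) as an activator of other metalloproteinases and Mmp12 (macrophage elastase) as a product of macrophages and microglia. Both were near the detection limit. Mmp3 was well above background in 4 kaolin and 3 saline samples, and Mmp12 in 3 kaolin samples and 1 saline sample.

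Mmp12 had log2 ratios of 0.10, 0.21, 0.43, 0.31 and 0.27 on replicates 1 to 5. All 5 arrays were above 0, as for 3 of the 12 member probes (Timp2, Mmp12 and Adamts1) and for 6.23% of all tested probes. As Mmp12 entered the test only through the kaolin channel, its place in this count is no support. Kaolin levels were 6.35, 6.30, 6.54, 6.92 and 6.51, and saline levels were 6.25, 6.08, 6.11, 6.61 and 6.24, so the groups overlapped. The mean was 0.26 ± 0.12 (SD, n = 5), 1.20-fold, with a 95% interval of 0.09 to 0.44 and an adjusted p of 0.243 (limma with Benjamini-Hochberg adjustment). The size depended on the processing: the mean was 0.67 with a normexp offset of 0, and 1.19 in the authors' deposited table, whose normalization no source used here gives. The log ratio of the scanner software also gave 1.19. The authors' deposited table gave Mmp12 log2 ratios of 1.28, 0.21, 2.05, 0.91 and 1.48.

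Mmp3 had log2 ratios of 0.18, -0.12, 0.53, 0.13 and 0.55 on replicates 1 to 5. Kaolin levels were 6.73, 6.43, 7.01, 6.40 and 6.94, and saline levels were 6.55, 6.55, 6.49, 6.27 and 6.38. Replicates 3 and 5 were highest and the groups overlapped. The mean was 0.25 ± 0.29 (SD, n = 5), with a 95% interval of -0.01 to 0.52 and an adjusted p of 0.288 (limma with Benjamini-Hochberg adjustment). It was 0.49 with a normexp offset of 0 and 0.59 in the authors' deposited table.

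Adamts1 encodes a secreted protease that cuts aggrecan, versican and related proteoglycans of the brain matrix. Its log2 ratio was 0.05, 0.05, 0.05, 0.18 and 0.71 on replicates 1 to 5. Kaolin levels were 6.58, 6.42, 6.45, 6.84 and 7.21, and saline levels were 6.53, 6.37, 6.40, 6.66 and 6.50. Replicate 5 carried most of the difference, and 3 arrays were close to 0. The mean was 0.21 ± 0.29 (SD, n = 5), with a 95% interval of -0.06 to 0.48 and an adjusted p of 0.344 (limma with Benjamini-Hochberg adjustment). Without replicate 5 it was 0.08, and in the authors' deposited table it was 0.70.

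Among the matrix metalloproteinases, Mmp2 and Mmp9 had means near 0 and Mmp14 varied widely between arrays. Mmp3 and Mmp12 were near the detection limit, where the size of the mean depended on the processing. For Mmp12 it was 0.26 here and 1.19 in the authors' deposited table, above the 0.63 that table gave for Mmp14. With 5 arrays, the precision of these means is limited. With each array weighted by its agreement with the others, 4 member probes passed the limma test with Benjamini-Hochberg adjustment, all higher in kaolin, against 5.4% of all tested probes: Timp1 (2.53, adjusted p 0.0424), Timp2 (0.83, adjusted p 0.0423), Mmp12 (0.30, adjusted p 0.0424) and the brighter Timp4 probe (0.44, adjusted p 0.0445). For Mmp12 the ratio is taken against saline samples of which 1 was well above background. Mmp12 entered the test only through the kaolin channel, so its place in this count is no support. Without replicate 2, the brighter Timp4 probe alone among the members passed it (0.54, adjusted p 0.0459), against 2.42% of all tested probes. Within slide 1, which is replicates 1 to 4, the mean log2 ratio was 1.49 for Timp1, 0.57 for Timp2 and 0.41 for Mmp14, and slide 2 held replicate 5 only. With slide as a random block, the means were 1.75, 0.69 and 0.55.

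**Figure D4:**
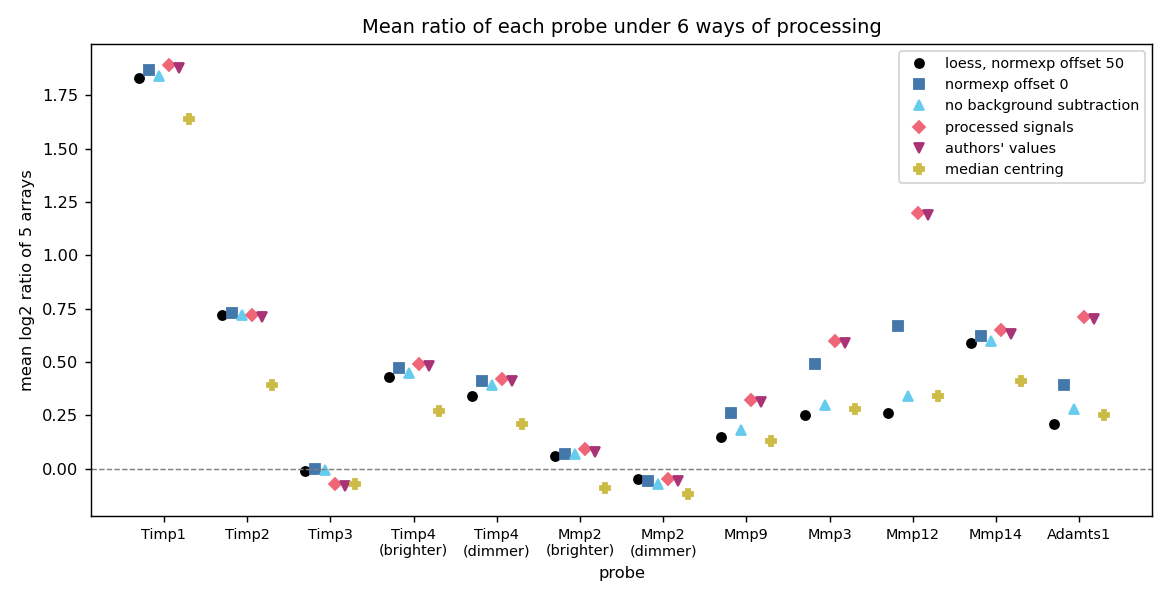
Mean log2 ratio of each member probe over 5 arrays under 6 ways of processing, with the values used here (loess, normexp offset 50) in black. Timp1 lies between 1.64 and 1.89, while the dim Mmp12 probe runs from 0.26 to 1.2 and the Mmp2 brighter probe falls below 0 with median centring.

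Several lists of cell type markers were high on the same arrays as Timp1, Timp2 and Mmp14. In bulk cortex, more cells of a type and more RNA per cell cannot be told apart. Of the 5 reactive astrocyte markers, 5 had positive means, with a median of 1.55 and summed log2 levels of 12.46 to 15.80 in kaolin and 12.29 to 12.95 in saline samples. Microglia and macrophage markers (Aif1, Cd68, Tyrobp, C1qb, Itgam, Cx3cr1, Csf1r) had positive means for 7 of 7 and medians of -0.11, 0.11, 2.10, 1.35 and 1.57 on replicates 1 to 5. Their summed log2 levels were 13.90 to 16.16 in kaolin and 13.61 to 13.90 in saline samples. Like Timp1, both lists were near 0 on replicates 1 and 2 and high on replicates 3, 4 and 5. Their part in the result was not tested. Markers of choroid plexus had positive means for 0 of 5 tested genes, a median of -0.54, and summed log2 levels of 9.71 to 11.66 in kaolin and 10.24 to 15.71 in saline samples. That median was -1.37 in the authors' deposited table and -1.36 from the processed signals, and Clic6 and Otx2 entered the test only through saline, with 0 and 1 kaolin samples well above background. Neuron markers had positive means for 1 of 6 and a median of -0.23, oligodendrocyte markers for 1 of 4 and -0.03, resting astrocyte markers for 2 of 5 and -0.01, and endothelial and pericyte markers for 4 of 6 and 0.02.

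The 5 tested genes whose ratios lay closest to those of Timp1 over the 5 arrays, by root mean square difference, were Hspb1, Gpnmb, Fcgr3a, Ccl2 and Lgals3. Hspb1, a small heat shock protein, differed by 0.42 (-0.24, -0.89, 3.04, 2.67 and 3.54 on replicates 1 to 5). Gpnmb, a glycoprotein of macrophages and microglia, differed by 0.45 (0.11, -0.14, 3.81, 3.32 and 3.86). Fcgr3a, an immunoglobulin receptor of macrophages and microglia, differed by 0.48 (0.29, -0.18, 3.95, 2.88 and 3.12). These 3 had the same layout as Timp1, close to 0 or below on replicates 1 and 2 and far above it on the others. That likeness follows from their selection by closeness to Timp1. Ccl2, a chemokine that draws monocytes, differed by 0.50 (0.47, -0.19, 3.22, 3.33 and 2.33). It was well above background in 4 kaolin and 3 saline samples, so the size of its ratios is uncertain. Lgals3, a lectin of phagocytes, differed by 0.52 (0.54, -1.07, 3.47, 2.98 and 3.55).

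None of the 7 lists of related genes held a gene past the limma test with Benjamini-Hochberg adjustment, and their counts are read beside 56.4% of all 12702 tested genes with a positive mean and a median of 0.03. Of 17 other matrix metalloproteinases, 16 were on the array and 8 were tested, 6 with a positive and 2 with a negative mean, and a median of 0.08. Mmp1, Mmp7, Mmp8, Mmp10, Mmp11, Mmp20, Mmp21, Mmp25 and Mmp27 were not tested. Mmp19, a basement membrane protease, was well above background in 3 kaolin and 0 saline samples and entered the test only through kaolin, so its ratio is a bound and is not given. It is counted as positive, and its place in this count is no support. Over the 6 genes well above background in both channels of all arrays, the median was 0.08. Mmp24, a membrane-bound enzyme of neurons, had -0.17 ± 0.18, Mmp23 0.26 ± 0.40 and Mmp16, a membrane-bound enzyme, 0.14 ± 0.29. Of 18 other Adamts proteases, 11 were tested, 5 positive and 6 negative, with a median of -0.03. Adamts13, which cuts von Willebrand factor, had log2 ratios of 0.02, 0.84, 0.64, 0.08 and 2.83 on replicates 1 to 5, so replicate 5 was far from the rest. Adamts3 had a mean of -0.14 ± 0.10 and Adamts7 0.16 ± 0.31. Adamts12 was near the detection limit, well above background in 2 kaolin and 3 saline samples. Its mean of -0.15 ± 0.12 has no firm size, and its place among the negatives is no support. Of 10 Adam proteases and Reck, which holds metalloproteinases in check at the cell surface, 7 were tested, 3 positive and 4 negative, with a median of -0.13. Adam17, the sheddase that Timp3 inhibits, was positive on 5 of 5 arrays with a mean of 0.34 ± 0.28 (SD, n = 5). Adam15 had 0.42 ± 0.44, Adam8 0.17 ± 0.13 and Adam33 -0.37 ± 0.47.

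The plasminogen system makes plasmin, which activates several metalloproteinase precursors. Of its 9 genes, 7 were tested, 5 positive and 2 negative. The median was 0.34 (0.12, -0.06, 0.53, 0.28 and 0.51 on replicates 1 to 5). Plau, counted as positive, was well above background in 3 kaolin and 0 saline samples. It entered the test only through kaolin, so its place in this count is no support. Over the 5 genes well above background in both channels of all arrays, the median was 0.39. Plat, tissue plasminogen activator, had log2 ratios of 0.16, 0.16, 0.76, 0.38 and 0.68 and a mean of 0.43 ± 0.28 (SD, n = 5), with an adjusted p of 0.243 (limma with Benjamini-Hochberg adjustment). Serpine2, an inhibitor of plasminogen activators and thrombin, was negative on 5 of 5 arrays with a mean of -0.23 ± 0.13 (SD, n = 5) and an adjusted p of 0.243 (limma with Benjamini-Hochberg adjustment). Plaur, the urokinase receptor, had 0.23 ± 0.19, and Serpini1 (neuroserpin), another inhibitor of plasminogen activators, had 0.39 ± 0.41, so the inhibitors did not share a sign. A2m, a broad protease inhibitor of the same list singled out after its values were seen, had log2 ratios of -0.24, -1.14, 4.42, 4.42 and 5.32. Its mean of 2.56 was the largest of the list, below 0 on replicates 1 and 2 and far above it on the others, with an adjusted p of 0.262 (limma with Benjamini-Hochberg adjustment). The list median was 0.22 without replicate 3, 0.21 with median centring and 0.49 in the authors' deposited table.

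Of 11 partners in docking, uptake and activation, 10 were tested, 8 positive and 2 negative, with a median of 0.11, which was 0.06 without replicate 3 or replicate 5 and -0.03 with median centring. Among these, 3 of the 4 genes named from it had means far above that median. Lcn2, which binds Mmp9 and protects it from degradation, had log2 ratios of 0.14, -0.04, 2.57, 2.45 and 2.61. Cd44, a hyaluronan receptor that holds Mmp9 and Mmp14 at the cell surface, had 0.23, -0.48, 2.33, 1.84 and 2.35. Cd63, a cell surface partner of Timp1, had 0.18, -0.44, 1.68, 0.94 and 1.42. The 3 genes were close to 0 or below on replicates 1 and 2 and well above 0 on replicates 3, 4 and 5, and Lcn2 and Cd44 are also among the reactive astrocyte markers. Cav1, a coat protein of caveolae, had a mean of 0.17 ± 0.18.

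Of 19 matrix and cell surface substrates, 18 were tested, 13 positive and 5 negative, with a median of 0.06. Spp1 (osteopontin), a substrate of Mmp3 and other metalloproteinases, had log2 ratios of 0.15, 0.52, 3.98, 4.02 and 4.41 and a mean of 2.62 ± 2.09 (SD, n = 5), positive on 5 of 5 arrays. Ocln (occludin), a tight junction protein, was also positive on 5 of 5, with 0.32 ± 0.21. Tnc (tenascin C), a matrix glycoprotein of injured brain, had 0.03, -0.18, 0.67, 0.98 and 0.55, and Lamc1, a laminin chain, a mean of 0.17 ± 0.21. Of 22 cytokines and transcription factors that act on protease genes, 17 were tested, 13 positive and 4 negative, with a median of 0.23. That median was 0.15 without replicate 5 and 0.06 with median centring. It was 0.11 over the 15 genes well above background in both channels of all arrays. Cxcl1, counted as positive, was well above background in 3 kaolin and 0 saline samples. It entered the test only through kaolin, so its place in this count is no support. Il6, Tnf, Osm, Osmr and Il6ra were not tested. Rela, a subunit of NF-kB, was positive on 5 of 5 arrays with a mean of 0.33 ± 0.19 (SD, n = 5). Il1b, an inducer of metalloproteinases in glia, had log2 ratios of 0.11, -0.13, 0.96, 1.08 and 0.62. Tgfb1, which induces Timp1 in many cells, had a mean of 0.34 ± 0.26.

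**Figure D5:**
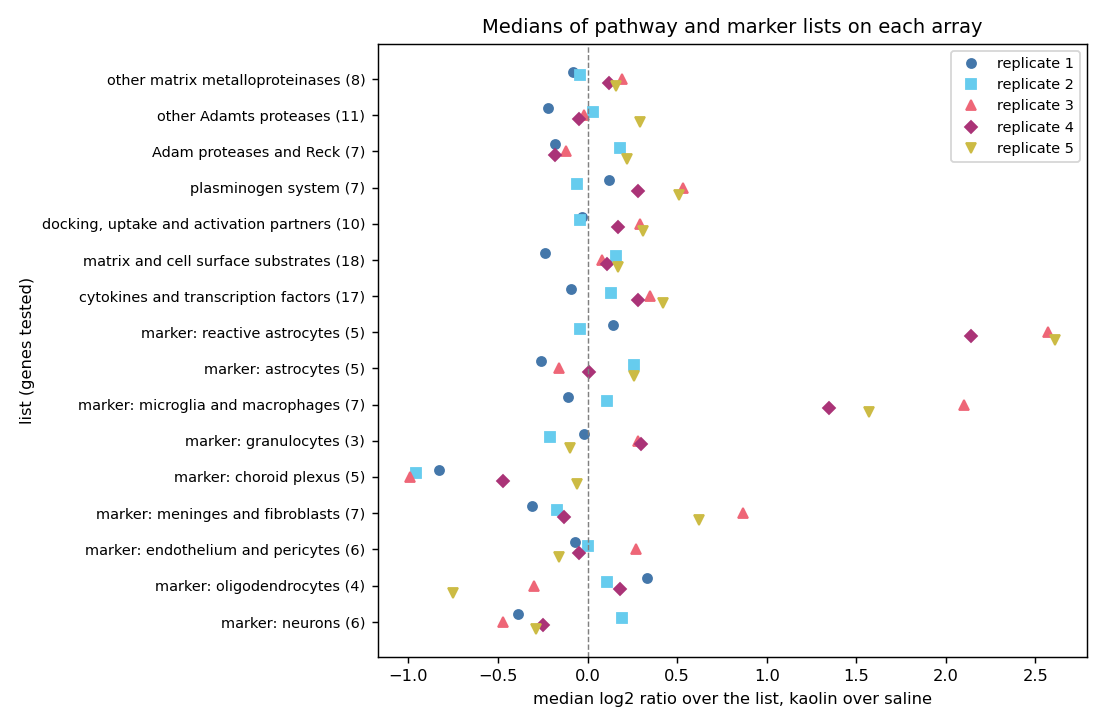
Median log2 ratio of each gene list on every array, with a point per replicate, for the related genes and the cell type markers. Reactive astrocyte and microglia medians lie near 0 on replicates 1 and 2 and between 1.35 and 2.61 on replicates 3, 4 and 5, while the list of other matrix metalloproteinases lies between -0.08 and 0.19.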

How the data were processed

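Each of the 5 Agilent arrays paired a kaolin (Cy3) and a saline (Cy5) sample, per the labels. Per the file headers, scanner output came from Agilent Feature Extraction 10.1.1.1. Mean spot signals, local backgrounds and processed signals are deposited intensity values. Per the file headers, the software also gives a log10 ratio, with Cy5 as numerator. Spot flags are 0 or 1, per the file headers. The authors' table holds log2 ratios; no source used here gives their normalization. Its columns ran opposite to the log10 ratio of their arrays (correlation from -1.00 to -0.978), so they are Cy3 over Cy5, with medians of 0.02, -0.05, -0.02, 0.09 and -0.10. For every member probe, the authors' table gave the same rounded mean as the software's ratio, put in log2 with its sign turned.

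Outlier-flagged spots (86 to 147 per array) were left out. Signals were corrected with normexp (offset 50), normalized by loess within arrays with control spots at weight 0, and averaged per probe. Channel levels were then scaled between arrays with Aquantile. Testing required a probe to exceed background clearly in either channel on 3 or more of 5 arrays (29110 of 41012). Ratios were fitted with limma 3.58.1 in R 4.3.3 as a mean against 0, both sides, with files read by the data.table package, version 1.17.8, and p-values were adjusted by Benjamini-Hochberg across the tested probes. The fit was tested on simulated data. A gene stands for its brightest tested probe. Symbols were updated through RefSeq by accession, gene ID or symbol; 20253 probes kept the name in the file. Tables and figures were made with Python 3.11.15, pandas 2.3.3, numpy 2.4.6 and matplotlib 3.10.9.

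All members are named. From each related list the 4 genes with the smallest unadjusted p are named, besides cell type markers and the 5 genes closest to Timp1. Members and lists were chosen with earlier results of these data known, and no test was made over a list. Alternatives covered background correction, normalization, dim-probe filter, outlier spots, array weights, slide, pairing, probe choice, the authors' values, each replicate left out and the sign of replicate 2.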

Additional observations from a re-analysis of the deposited data

Results flagged for a closer look

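Of 36 groups of 5 values examined (12 member probes, each as log2 ratio, kaolin level and saline level), 2 had a sample far from the others by Dixon's criterion, which chance meets in about 1 in 20 groups. Adamts1 had a log2 ratio of 0.71 on replicate 5, where the nearest other array had 0.18 and the lowest 0.05, a gap of 0.797 of the range. Timp3 had a log2 ratio of 0.31 on replicate 5, where the nearest other array had -0.04 and the lowest -0.13, a gap of 0.81 of the range. Replicate 5 is the array on slide 2.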

How the results depend on the processing

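Of 215 values of member probes under 19 alternatives (1 of them only for genes with 2 probes), 201 kept their direction and their side of the threshold, 5 newly passed it and 9 changed sign. The sign changes were confined to both Mmp2 probes and Timp3, whose means are near 0. The Mmp2 brighter probe (0.06) was -0.09 with median centring, and -0.04 to 0.23 with a replicate left out. The Mmp2 dimmer probe was 0.02 with the sign of replicate 2 turned, an alternative added after the correlations were seen. Timp3 was 0.0096 with that sign turned, and -0.09 to 0.02 with a replicate left out. Over the alternatives, Timp1 ran from 1.44 to 2.53 with limma adjusted p from 0.0424 to 0.66, Timp2 from 0.39 to 0.90, Mmp14 from 0.41 to 0.88, Mmp12 from 0.18 to 1.2, Mmp3 from 0.18 to 0.60, Mmp9 from 0.05 to 0.32 and Adamts1 from 0.08 to 0.71. List medians near 0 changed sign or size: with median centring, other matrix metalloproteinases had 0.0, substrates -0.06 and endothelium and pericytes -0.17, while other Adamts proteases had 0.04 without replicate 1 and Adam proteases and Reck -0.03 without replicate 4.

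No probe passed in the main setting, where 5280 had an unadjusted p under 0.05. The number of probes past the threshold was 22 with median centring, 3487 with array weights, 487 with the sign of replicate 2 turned, and 3 without the pairing by array (no replicate block). It was 0 to 1518 with a replicate left out: 1 without replicate 1 and 1518 without replicate 2. Member probes past it numbered 4 with array weights, among them the dim Mmp12 probe, and 0 to 1 with a replicate left out. Of 122 probes of list genes, 27 passed with array weights, 1 with the sign of replicate 2 turned and 0 to 7 with a replicate left out (7 without replicate 2). Over all tested probes, the numbers were 3487 of 29110 with array weights, 487 of 29110 with that sign turned and 1518 of 29109 without replicate 2. As the lists were chosen with earlier results of these data known, the list counts are no support. Dropping the pairing changed no member's call. The cause of these changes was not tested. Requiring signal well above background in both channels of all arrays left out Mmp3, Mmp12 and Adamts1, which are too dim for a firm size.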
